A study of Mus musculus with 25 samples.

Results

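Immediate early genes are a small set of genes whose RNA appears within minutes of a stimulus, without the need for new protein, and whose levels in tissue macrophages also climb while cells are collected and handled. Of them, 10 genes were followed here: Fos, Fosb, Jun, Junb, Jund, Egr1, Ier2, Dusp1, Atf3 and Zfp36. They were chosen by name, as symbols in the table of all genes, and all 10 were present among its 13266 genes and passed the filter on low values. RNA was sequenced from peritoneal macrophages, the resident phagocytes of the abdominal cavity, of mice that were not treated, at Day 0 of the labels. The 25 libraries were 4 of SAMHD1 MDA5 DKO, 4 of SAMHD1 RIG-I DKO, 4 of SAMHD1 KO, 4 of MDA5 KO, 4 of RIG-I KO and 5 of WT, where KO is a knockout and DKO a double knockout. SAMHD1 is an enzyme that breaks down deoxynucleotides, and MDA5 (gene Ifih1) and RIG-I (gene Ddx58) are cytosolic sensors of RNA. Titles call the SAMHD1-deficient line both KO and DEL, and no label used here ties a library to a single animal, so p-values measure the spread between these libraries.

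The encoded proteins work in layers, given here as background. Fos and Fosb pair with Jun, Junb or Jund to form AP-1, a transcription factor, while Atf3 is a related stress-induced factor that often represses, Egr1 is a zinc finger factor downstream of MAP kinase signalling, and Ier2 is a nuclear protein of the early response. Dusp1 and Zfp36 end the response: Dusp1 is a phosphatase that switches off MAP kinases, and Zfp36 (tristetraprolin) binds AU-rich stretches in 3′ UTRs and speeds the decay of inflammatory RNAs. Most of the set is silent or low in undisturbed cells, whereas Jund is the member known for steady expression.

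On GRCm38, the GENCODE M21 annotation places Fos (ENSMUSG00000021250) on chromosome 12 from 85473890 to 85477273, Fosb (ENSMUSG00000003545) on chromosome 7 from 19302696 to 19310051 and Jun (ENSMUSG00000052684) on chromosome 4 from 95049034 to 95052222. It places Junb (ENSMUSG00000052837) on chromosome 8 from 84974484 to 84978718, Jund (ENSMUSG00000071076) on chromosome 8 from 70698949 to 70700616 and Ier2 (ENSMUSG00000053560) on chromosome 8 from 84661331 to 84662852. It further places Dusp1 (ENSMUSG00000024190) on chromosome 17 from 26505590 to 26562128, Atf3 (ENSMUSG00000026628) on chromosome 1 from 191170296 to 191218039 and Zfp36 (ENSMUSG00000044786) on chromosome 7 from 28376784 to 28380253, and Egr1 has the identifier ENSMUSG00000038418. Each is a protein-coding gene, and 4 of the 10 (Jun, Junb, Jund and Ier2) have no intron, against 2.30% of the 11702 tested protein-coding genes with an annotated transcript. The 3′ UTR of 7 of the 10 holds the heptamer TATTTAT, the core that Zfp36 protein is known to bind in RNA, against 29.7% of the same genes; Junb, Egr1 and Ier2 lack these letters. The stretches below show that shared feature, 1 site for each of the 7 genes with 7 bases on either side and the heptamer in capitals, written 5′ to 3′ on the gene's strand as DNA from the GENCODE M21 transcripts.
Fos, chr12:85477107-85477127, plus strand: ttcaattTATTTATtaagatg
Fosb, chr7:19303330-19303350, minus strand: ccccagcTATTTATccctttc
Jun, chr4:95049083-95049103, minus strand: ttgtgcaTATTTATaatagcg
Jund, chr8:70700363-70700383, plus strand: tccgcccTATTTATgtttcta
Dusp1, chr17:26506163-26506183, minus strand: tggtcctTATTTATttaacac
Atf3, chr1:191170342-191170362, minus strand: tattactTATTTATcccagta
Zfp36, chr7:28376970-28376990, minus strand: ggcccttTATTTATgacgact

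RefSeq promoter windows (GRCm38.p6, 250 bases before to 50 after the start) were available for 8 of the 10 genes, not for Egr1 and Ier2, and were searched on both strands for 4 motifs. These were the CArG box bound by serum response factor, the AP-1 site TGANTCA, the cyclic AMP response element TGACGTCA, and the EGR site GCGNGGGCG. Matches lay in Zfp36, with a CArG box starting at base -58 and an EGR motif at -105, in Dusp1, with TGACGTCA at -143, and in Fosb, with an EGR motif at -50. The windows of Fos, Jun, Junb, Jund and Atf3 held none of these letters. Bases outside the windows were not searched, so sites further from the start would be missed. For Jund, Dusp1, Atf3 and Zfp36 the RefSeq start is not the 5′ end of the GENCODE gene span given above, so these windows do not lie at that end. For Fosb and Junb the 2 positions differ slightly, and the windows still cover that end. Among 32851 promoter windows of the same length, the shares with a match were 1.63% for the CArG box, 7.81% for TGANTCA, 1.79% for TGACGTCA and 5.55% for GCGNGGGCG. The 3 windows with a match are shown, with matched letters in capitals. Whether these motifs bear on the values of the 10 genes was not tested.
Zfp36, chr7:28379179-28379478, minus strand: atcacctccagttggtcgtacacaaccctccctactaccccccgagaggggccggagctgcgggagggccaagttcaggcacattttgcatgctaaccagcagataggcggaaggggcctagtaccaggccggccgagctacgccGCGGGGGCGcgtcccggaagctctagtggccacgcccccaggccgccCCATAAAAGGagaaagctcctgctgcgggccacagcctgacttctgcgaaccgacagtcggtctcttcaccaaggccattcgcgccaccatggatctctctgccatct
Fosb, chr7:19309996-19310295, minus strand: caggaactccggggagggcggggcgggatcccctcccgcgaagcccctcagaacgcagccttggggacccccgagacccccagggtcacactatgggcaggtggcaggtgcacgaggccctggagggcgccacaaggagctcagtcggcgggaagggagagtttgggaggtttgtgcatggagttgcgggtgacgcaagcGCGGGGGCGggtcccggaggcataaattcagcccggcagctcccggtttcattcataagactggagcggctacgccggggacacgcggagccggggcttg
Dusp1, chr17:26508423-26508722, minus strand: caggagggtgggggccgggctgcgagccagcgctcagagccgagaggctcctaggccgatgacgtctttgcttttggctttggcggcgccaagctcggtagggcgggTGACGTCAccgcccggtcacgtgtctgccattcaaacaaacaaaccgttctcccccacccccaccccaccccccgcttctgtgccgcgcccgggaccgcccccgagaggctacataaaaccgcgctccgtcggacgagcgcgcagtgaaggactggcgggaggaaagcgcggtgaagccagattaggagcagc

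Values below are normalized counts, reads per gene divided by the authors' size factor of the library, in which 1 read is worth 0.846 to 1.19. The listed genes held 25886469 to 39590589 reads per library. Of 7 macrophage markers all were measured, with summed levels of 336036 to 467956 in every library. Samhd1 averaged 2194 ± 1844 in SAMHD1 MDA5 DKO, 1633 ± 149 in SAMHD1 RIG-I DKO and 2186 ± 1731 in SAMHD1 KO libraries, against 9904 ± 2293 in WT libraries (SD, n = 4, 4, 4 and 5). The library labelled SAMHD1 KO library 2 kept 48.1% of the WT mean, and the one labelled SAMHD1 MDA5 DKO library 3 kept 50%. Ifih1 stayed at 0.871 to 14.9 in the libraries lacking MDA5, against 1411 to 2482 in the other genotypes, and Ddx58 at 194 to 304 in those lacking RIG-I, against 1110 to 2247. Libraries are numbered by column order within a genotype. SAMHD1 KO library 2 and WT library 3 carry the last 2 library codes of the column names and stood apart on the first principal component of all genes (20.3% of the variance), at 63.9 and 50.9, against -25.8 to 20.7 for the other 23. Of those 23, the RIG-I KO and SAMHD1 RIG-I DKO libraries lay at 10.3 to 20.7, toward these 2. The rest lay at -25.8 to 2.24, so this component also separated the libraries lacking RIG-I. Each library is called by its label throughout. The codes of the other 23 libraries run in unbroken blocks by genotype, so code order and genotype cannot be told apart among them. The labels do not say what the code stands for, so each result is given with and without SAMHD1 KO library 2 and WT library 3 where that changes it.

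Most of the immediate early genes varied more between libraries of a genotype than most genes did, though Jund did not and Ier2 stood near the middle, and much of the variation of several lay in 2 libraries. In SAMHD1 KO library 2 and WT library 3, Fosb, Jun, Junb and Zfp36 were higher than in any of the other 23 libraries and Fos was above all but 1 of them in WT library 3 and above all in SAMHD1 KO library 2, while Atf3 was below the mean of the rest of its genotype. Both libraries were the highest of 25 for 4 members (Fosb, Jun, Junb and Zfp36), a pattern that 15.3% of all tested genes also showed. No test was made of the 2 libraries against the rest, because they are 1 library each of 2 genotypes.

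Among the AP-1 genes, Fosb had 1019.8 normalized counts in SAMHD1 KO library 2 and 114 in WT library 3, against 11.1 to 92.1 in the other 23. SAMHD1 KO library 2 stood 35.5-fold above the mean of the other SAMHD1 KO libraries and WT library 3 6.89-fold above that of the other WT libraries. Fos had 10186 normalized counts in SAMHD1 KO library 2 and 3727 in WT library 3, against 485 to 3839.8 in the other 23. For Fos the ratios to the other libraries of the same genotype were 7.38 and 5.26, and 1 of the other 23 libraries lay above WT library 3. Jun had 10388 normalized counts in SAMHD1 KO library 2 and 5792 in WT library 3, against 1008 to 3488 in the other 23, and its ratios were 5.01 and 4.62. Junb had 14819 normalized counts in SAMHD1 KO library 2 and 16269 in WT library 3, against 4974 to 11999.5 in the other 23, with ratios of 1.79 and 2.72. Jund had 3973 normalized counts in SAMHD1 KO library 2 and 3232 in WT library 3, against 2080.1 to 4034 in the other 23; both libraries lay within that range, with ratios of 1.10 and 1.09.

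Zfp36, the RNA decay factor, had 26938 normalized counts in SAMHD1 KO library 2 and 17937 in WT library 3, against 3195 to 11814 in the other 23, and stood 4.13-fold and 3.92-fold above the rest of its genotype. Dusp1 had 30221 normalized counts in SAMHD1 KO library 2 and 16657 in WT library 3, against 3963 to 44206 in the other 23, so that the highest Dusp1 value lay elsewhere, in MDA5 KO library 1. Egr1 had 2683 normalized counts in SAMHD1 KO library 2 and 779 in WT library 3, against 131 to 1524 in the other 23; only SAMHD1 KO library 2 exceeded that range. Ier2 had 4045 normalized counts in SAMHD1 KO library 2 and 3779.8 in WT library 3, against 2213 to 3980.2 in the other 23, with ratios of 1.29 and 1.39. Atf3 had 589 normalized counts in SAMHD1 KO library 2 and 511 in WT library 3, against 437 to 1047 in the other 23, and was lower than the mean of the rest of its genotype, with ratios of 0.690 and 0.765. The mean deviation of the 10 genes from their genotype means was 1.30 in SAMHD1 KO library 2 and 1.03 in WT library 3, against -0.63 to 0.64 in the other 23 libraries, on the log2 scale.

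**Figure D1:**
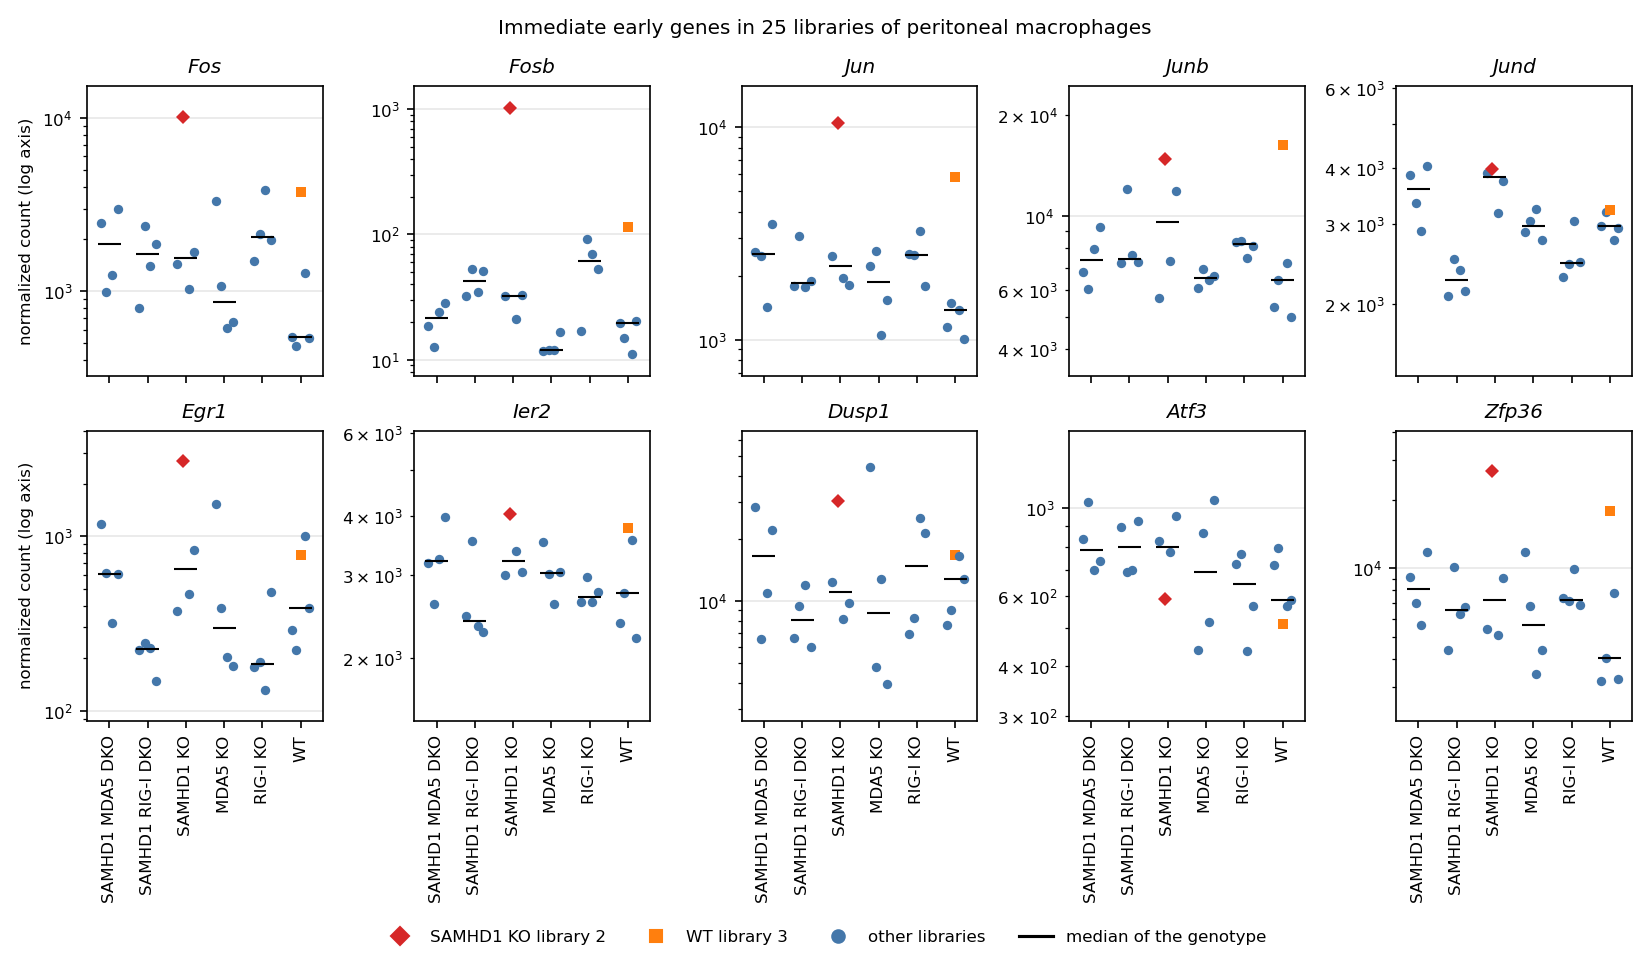
Normalized counts of the 10 immediate early genes (log axis) in each of 25 libraries by genotype, with the median of each genotype as a line. SAMHD1 KO library 2 (red diamond) and WT library 3 (orange square) lie above all other libraries for Fosb, Jun, Junb and Zfp36, while Jund is low in the SAMHD1 RIG-I DKO libraries (2080.1 to 2518).

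Related genes were read from lists of the same pathway, chosen with earlier results known. Of 10 genes of MAP kinase feedback and RNA decay measured, 5 were highest in both of these libraries: Spry2, Zfp36l1, Zfp36l2, Ppp1r15a and Gadd45b. Of 14 other immediate early factors 4 were (Egr2, Klf4, Ier3 and Btg2), and of 8 other AP-1 and ATF factors 2 were (Atf4 and Mafg). Among 9 upstream kinases and ternary complex factors, 2 were (Elk1 and Elk4). These counts stand against 15.3% of all tested genes, and those of the AP-1 and ATF factors and of the kinases lie near that share. Of the heat shock and stress genes of cell dissociation, 0 of 13 were highest in both libraries and 6 of 13 were lowest in both, against 17.8% of all tested genes. The chaperone Hspa8 had 52542 normalized counts in SAMHD1 KO library 2 and 41904 in WT library 3, against 60888 to 107618 in the other 23. The mitochondrial chaperonin Hspe1 had 546 and 395 in these libraries, against 817 to 1977. The others lowest in both were Hsp90aa1, Hsp90ab1, Dnajb1 and Mcl1. Rhob, of the same list, lay in the upper part of the range, at 5489 and 4586, against 1791 to 7517 in the other 23, with a median of 3628.

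Most marker lists of other cells lay within the range of the other 23 libraries in both. B cell markers (6 of 6 measured) summed to 297 in SAMHD1 KO library 2 and 114 in WT library 3, against 62.0 to 3764 in the other 23, and mast cell markers (5 of 6) to 292 and 191, against 0 to 1280. Of the lists measured, 2 lay outside the range of the other 23 in 1 library each: macrophage markers at 336036 in SAMHD1 KO library 2, against 351384 to 467956, and neutrophil and eosinophil markers (2 of 7) at 20.4 in WT library 3, against 33.5 to 78.8. Both libraries were among the shallower: SAMHD1 KO library 2 had the fewest reads of the 25, at 25886469, and WT library 3 had 29825787, with 3 libraries below it and a range that reached 39590589. The part of these differences in the values of the 10 genes was not tested. In bulk RNA, more RNA per cell and more cells that carry it cannot be told apart.

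Within a genotype, the SD of a gene's log2 values (log2 of normalized count + 1, around the genotype means) had a median of 0.773 over the 10 genes, against 0.217 over the 13252 genes tested. Without the 2 libraries these medians were 0.479 and 0.172. Fosb had the largest SD of the 10, 1.28, at the 98.7th percentile of all genes tested, and 0.55 (89.1st percentile) without the 2 libraries. Dusp1 and Egr1 hardly depended on them: the SD of Dusp1 was 0.94 with and 0.93 without them, and that of Egr1 0.98 with and 0.89 without. Jund was the steadiest at 0.15, the 24.7th percentile, and Ier2 followed at 0.25.

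How closely the genes moved together differed between pairs, and much of it rested on the 2 libraries that stand apart. Over the 45 pairs, the Pearson r of deviations from genotype means had a median of 0.475, and 13 pairs lay over 0.7. Without the 2 libraries the median was 0.235 and 2 pairs lay over 0.7. Pairs without Atf3 were all positive over 25 libraries, the weakest being Jund and Egr1 (0.12). Over 23 libraries, Jund and Egr1 (-0.01) and Fosb and Egr1 (-0.19) were negative, and Fosb and Jun had 0.04. Values for pairs of other genes are not given here. Fos and Zfp36 were the closest pair, at r = 0.96 over 25 libraries and 0.91 over 23, followed without the 2 libraries by Fos and Dusp1 (0.73). Fosb, in contrast, had an r of 0.73 with Fos over 25 libraries and 0.26 over 23. Atf3 and Dusp1 ran against each other, at -0.86 over 25 and -0.84 over 23 libraries. These correlations are descriptions: the points share library and depth.

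The opposition of Dusp1 and Atf3 can be read in the MDA5 KO libraries. Dusp1 had 44206, 4805, 12730.0 and 3963 normalized counts in MDA5 KO libraries 1 to 4. Atf3 had 439, 867, 515 and 1047 in the same libraries. The library with the highest Dusp1 thus had the lowest Atf3 of the 4, and the one with the lowest Dusp1 the highest Atf3. In the RIG-I KO libraries, Dusp1 was 6966, 8307, 25245 and 21338, and Atf3 was 722, 767, 437 and 566. MDA5 KO library 1 also held the highest Fos (3318), Egr1 (1524) and Zfp36 (11814) of its genotype, but not the highest Jun or Junb.

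**Figure D2:**
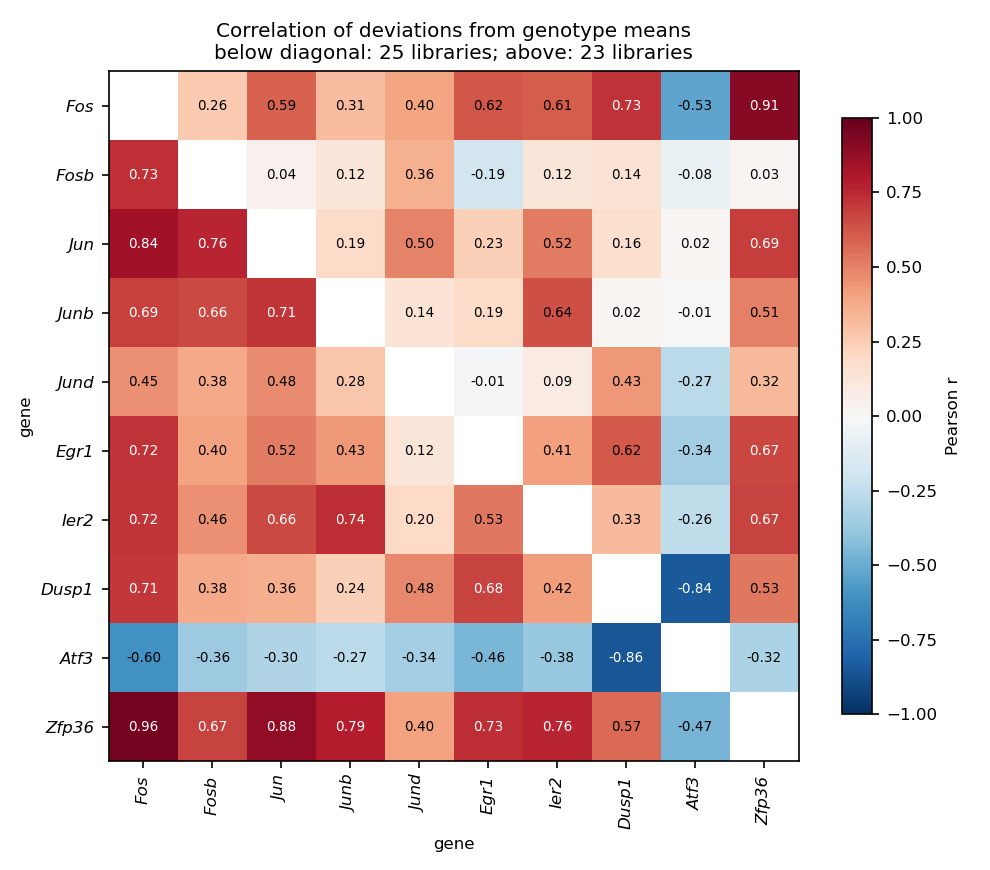
Pearson r between the deviations of 10 immediate early genes from their genotype means, over 25 libraries below the diagonal and over 23 libraries, without SAMHD1 KO library 2 and WT library 3, above it. Fos and Zfp36 stay at 0.91 and Dusp1 and Atf3 at -0.84 without the 2 libraries, while Fosb drops to 0.26 with Fos.

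Outside the set, the gene whose deviations were most like the mean of the 10 was Ppp1r15a (GADD34), which restores translation after stress by directing a phosphatase to eIF2α, at r = 0.97 over 25 libraries and 0.91 over 23, where it again ranked first. Mrgbp (0.96 over 25, 0.86 over 23), Fam98c (0.95 and 0.86) and Surf2 (0.94 and 0.82) followed. The next were Cdk10, Dus3l, Zgpat, Mks1, 2900005J15Rik and the splicing factor gene Srsf5, at 0.91 to 0.93 over 25 libraries and 0.69 to 0.78 over 23.

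Genotype comparisons came from 1 limma fit of all 25 libraries, with p-values adjusted over 13252 genes and a call at an adjusted p under 0.05. Among the 6 genotypes, 1 of the 10 genes differed, Jund (moderated F = 12.85, limma adjusted p = 0.0012). That count lies near the 9.87% of all genes tested that were called. Jund was lowest in SAMHD1 RIG-I DKO and highest in SAMHD1 KO macrophages. None of the others passed, and at an unadjusted p under 0.05 there were 2, Jund and Egr1.

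Jund, the most constant partner of AP-1, had 2080.1, 2518, 2379 and 2142 normalized counts in the SAMHD1 RIG-I DKO libraries, against 3892, 3973, 3180.5 and 3728 in the SAMHD1 KO libraries. The groups did not overlap, and how many of all genes did likewise was not counted. Jund was the 1 member of 10 called in this comparison, near the 10.5% of all genes called. It fell by 0.69 ± 0.10 on the log2 scale (SE, limma adjusted p = 0.0018). In SAMHD1 MDA5 DKO libraries Jund had 3845, 3338, 2895 and 4034, all above the SAMHD1 RIG-I DKO libraries, again without a count over all genes. The difference of SAMHD1 MDA5 DKO against SAMHD1 RIG-I DKO was 0.62 ± 0.10 (SE, limma adjusted p = 0.0057), again the 1 member called, where 0.158% of all genes were. Both comparisons share the SAMHD1 RIG-I DKO libraries.

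The order of Jund means ran from SAMHD1 KO at 3693 ± 357 and SAMHD1 MDA5 DKO at 3528 ± 514, through WT at 3023 ± 189.5 (n = 5) and MDA5 KO at 2989 ± 208, to RIG-I KO at 2569.9 ± 328 and SAMHD1 RIG-I DKO at 2279.9 ± 205 (SD, n = 4 each but WT). The ranges of libraries overlapped between all neighbours in that order. Between SAMHD1 RIG-I DKO and RIG-I KO libraries the difference was -0.17 ± 0.10 (SE, limma adjusted p = 1.00). It was -0.24 ± 0.10 (SE, limma adjusted p = 0.14) in RIG-I KO against WT and 0.29 ± 0.10 (SE, limma adjusted p = 0.86) in SAMHD1 KO against WT, so none of the 3 passed. The interaction of SAMHD1 with RIG-I, which sets the effect of losing SAMHD1 without RIG-I against that with it, was -0.45 ± 0.14 (SE, limma adjusted p = 1.00) for Jund. Without SAMHD1 KO library 2 and WT library 3, 1.77% of all genes were called between the double knockouts and 16% in SAMHD1 RIG-I DKO against SAMHD1 KO, and Jund was the 1 member called in each. The 35 other settings of each comparison included libraries left out and an added term marking these 2 libraries, which nearly repeats leaving them out. Over all 35, Jund stayed called between the double knockouts (0.55 to 0.71, adjusted p = 0.0013 to 0.046) and in SAMHD1 RIG-I DKO against SAMHD1 KO (-0.76 to -0.65, adjusted p = 0.00048 to 0.039).

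Markers of several other cells differed between the same groups. B cell markers (6 of 6) summed to 70.4 to 90.5 normalized counts in SAMHD1 RIG-I DKO, against 297 to 3764 in SAMHD1 KO and 240 to 623 in SAMHD1 MDA5 DKO libraries. Mast cell markers (5 of 6) summed to 1.19 to 15.3, against 111 to 1280 and 44.7 to 71.4. Each of the 5 mast cell markers, and 2 of the 6 B cell markers, was at 0 in at least 1 SAMHD1 RIG-I DKO library. The 1 T cell marker measured (of 5) was also lower, at 2.55 to 5.84, against 6.05 to 26.0 and 7.37 to 19.6. Neutrophil and eosinophil markers (2 of 7) were higher, at 67.2 to 78.8, against 33.5 to 48.9 and 38.7 to 59.3. The 1 platelet marker measured (of 3) had 5.95 to 8.76, against 2.23 to 29.8 in SAMHD1 KO, which overlap, and 1.84 to 4.90 in SAMHD1 MDA5 DKO libraries, which do not. Dendritic cell and erythroid markers overlapped between SAMHD1 RIG-I DKO and each of the others. Macrophage markers summed to 376397 to 413477, against 336036 to 441121 and 352889 to 441663. Their medians were 380877, against 426343 and 409861, and the 336036 was that of SAMHD1 KO library 2. The part of these cells in the Jund values was not tested.

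Egr1 took the same direction as Jund with a far larger spread. It had 222, 244, 229.6 and 148 normalized counts in SAMHD1 RIG-I DKO, against 374, 2683, 468 and 836 in SAMHD1 KO libraries. The groups did not overlap, but the difference of -1.93 ± 0.65 (SE, limma adjusted p = 0.058) missed the threshold. Here too, how many of all genes had no overlap was not counted. The Egr1 difference is given below with libraries left out. Egr1 passed when MDA5 KO library 1, which is in neither group but in the shared estimate of spread, was left out (-1.93, adjusted p = 0.031), or SAMHD1 KO library 1 (-2.29, adjusted p = 0.047). Without SAMHD1 KO library 2 and WT library 3 it was -1.34 ± 0.66 (SE, limma adjusted p = 0.17). In SAMHD1 MDA5 DKO libraries Egr1 had 1180.0, 615, 319.6 and 605, and SAMHD1 MDA5 DKO against SAMHD1 RIG-I DKO gave 1.56 ± 0.65 (SE, limma adjusted p = 0.49). In RIG-I KO libraries it had 177, 191, 131 and 479, against 289, 222, 779, 1003 and 388 in WT libraries, and these overlapped.

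The other 8 genes had no call in SAMHD1 RIG-I DKO against SAMHD1 KO, and the sign of several changed without SAMHD1 KO library 2 and WT library 3. Over all 25 libraries 9 of the 10 genes were lower in SAMHD1 RIG-I DKO, with a median of -0.58, against -0.04 for all genes, whereas without the 2 libraries 5 were lower and the median was -0.04. Fosb was -0.74 ± 0.84 (SE, limma adjusted p = 0.62) with all libraries and 0.55 ± 0.40 (SE, limma adjusted p = 0.37) without the 2, and Fos -0.58 ± 0.70 (SE, limma adjusted p = 0.63) and 0.14 ± 0.55 (SE, limma adjusted p = 0.89). Of the related lists, Klf2 (-0.68 ± 0.17 (SE, limma adjusted p = 0.021)), Myc (-0.94 ± 0.28 (SE, limma adjusted p = 0.039)), Fosl2 (-0.37 ± 0.09 (SE, limma adjusted p = 0.021)) and Rhob (-0.80 ± 0.24 (SE, limma adjusted p = 0.037)) fell, and Hspe1 (0.97 ± 0.27 (SE, limma adjusted p = 0.03)) rose. They were 2 of 14 immediate early factors, 1 of 8 AP-1 and ATF factors and 2 of 13 heat shock and stress genes, against the 10.5% of all genes called, and the 3 shares lie near it. Klf2 is a flow- and quiescence-linked transcription factor, Fosl2 an AP-1 partner and Rhob an early-induced small GTPase. Of the 10 feedback genes and 9 upstream kinases and ternary complex factors 0 passed. The feedback genes with the largest mean counts, not scaled to gene length, were Zfp36l2, a relative of Zfp36 (-0.34 ± 0.12 (SE, limma adjusted p = 0.075)), the NF-kB inhibitor Nfkbia (-0.36 ± 0.34 (SE, limma adjusted p = 0.52)), the MAP kinase phosphatase Dusp6 (-0.24 ± 0.17 (SE, limma adjusted p = 0.39)) and Zfp36l1 (-0.49 ± 0.22 (SE, limma adjusted p = 0.15)). Of the kinases, Mapkapk2, Mapk14 and Mapk3 had differences of -0.23, -0.10 and -0.29 (limma adjusted p = 0.089 to 0.44).

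In RIG-I KO against WT, Fos, Fosb and Jun were higher in most RIG-I KO libraries than in most WT libraries, but WT library 3 lay with the high values. Fos had 1485, 2153, 3839.8 and 1963 normalized counts in RIG-I KO libraries, against 541, 485, 3727, 1273 and 538 in WT libraries. Each RIG-I KO library exceeded 4 of the 5 WT libraries, and WT library 3 exceeded 3 of the 4 RIG-I KO libraries. Fosb had 17.0, 92.1, 69.3 and 53.1, against 19.5, 15.02, 114, 11.1 and 20.4. RIG-I KO library 1 lay among the WT libraries, and WT library 3 above all of RIG-I KO. Jun had 2517, 2499, 3228 and 1787, against 1145, 1487, 5792, 1377 and 1008, with the 4 RIG-I KO libraries between the 4 lower WT libraries and WT library 3.

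With all libraries, 0 of the 10 genes passed in RIG-I KO against WT, where 4.21% of all genes did, and 1 (Jund) had an unadjusted p under 0.05. Fos was 1.26 ± 0.66 (SE, limma adjusted p = 0.24), Fosb 1.01 ± 0.80 (SE, limma adjusted p = 0.45) and Jun 0.54 ± 0.48 (SE, limma adjusted p = 0.50). Without SAMHD1 KO library 2 and WT library 3, 3 of the 10 were called, against 15.7% of all genes. Fos was then 1.76 ± 0.51 (SE, limma adjusted p = 0.028), Fosb 1.56 ± 0.37 (SE, limma adjusted p = 0.0088) and Jun 0.98 ± 0.28 (SE, limma adjusted p = 0.026), each higher in RIG-I KO. Zfp36 (0.87 ± 0.37 (SE, limma adjusted p = 0.11)) and Junb (0.44 ± 0.19 (SE, limma adjusted p = 0.11)) did not pass. Another fit kept all 25 libraries and added a term marking SAMHD1 KO library 2 and WT library 3, chosen after seeing the data. It called the same 3 (Fos 1.80, Fosb 1.79, Jun 0.99), against 20.2% of all genes. The term takes up what the 2 libraries share, so this fit nearly repeats leaving them out and is no separate check. Leaving out 1 library at a time, WT library 3 included, called 0.

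**Figure D3:**
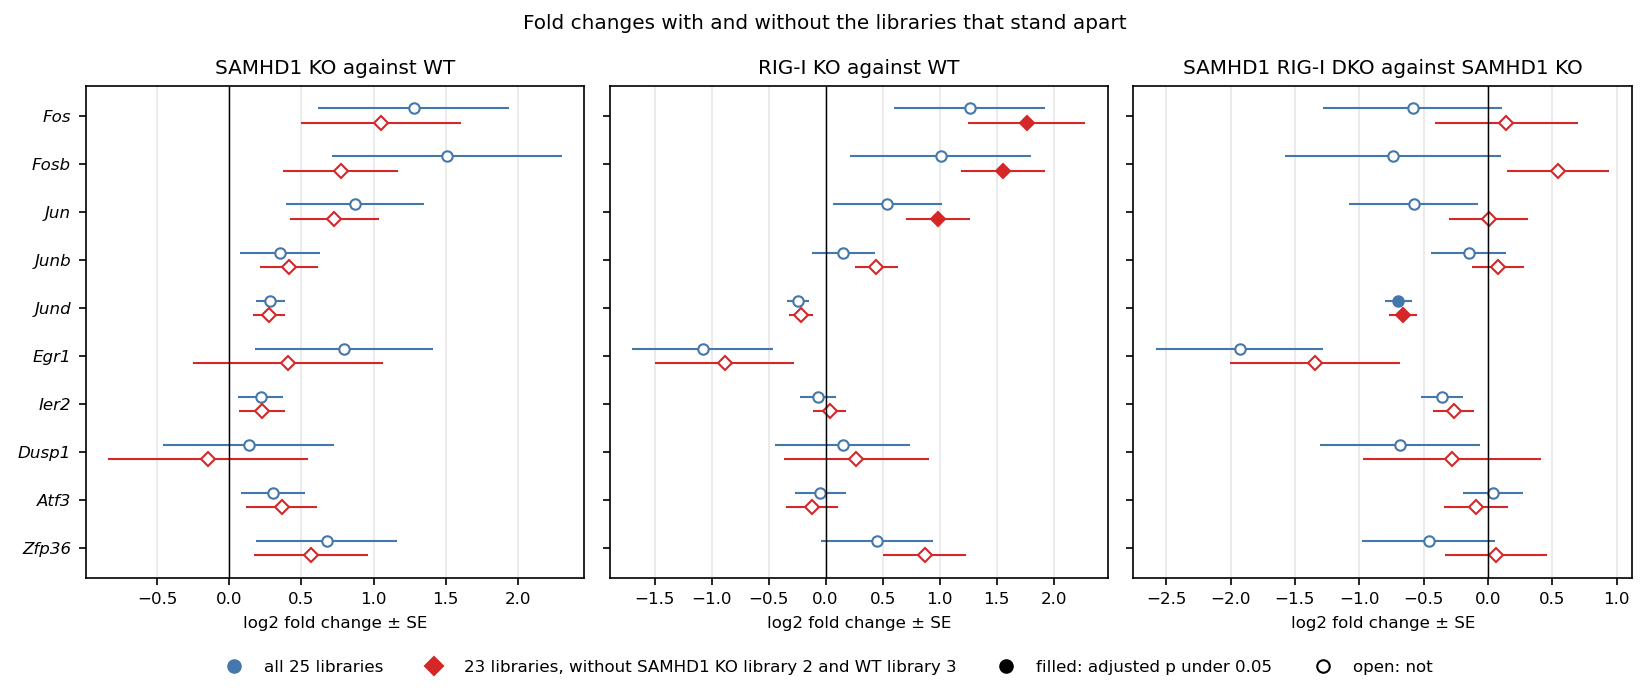
Log2 fold changes with standard errors of the 10 genes in 3 comparisons, with all 25 libraries (blue circles) and without SAMHD1 KO library 2 and WT library 3 (red diamonds), filled where the limma adjusted p was under 0.05. Jund is called in SAMHD1 RIG-I DKO against SAMHD1 KO both ways, Fos, Fosb and Jun in RIG-I KO against WT only without the 2 libraries, and Fosb changes side in SAMHD1 RIG-I DKO against SAMHD1 KO.

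Beside these values, B cell markers summed to 62.0 to 78.7 in RIG-I KO libraries, against 114 to 2144 in WT libraries, and mast cell markers to 0 to 16.7, against 18.03 to 194. All 5 mast cell markers measured, and 2 of the 6 B cell markers, were at 0 in at least 1 RIG-I KO library. The other lists (T cell, neutrophil and eosinophil, dendritic cell, erythroid, platelet) overlapped between these genotypes. Macrophage markers summed to 351384 to 376213, against 399728 to 467956. The WT ranges include WT library 3, although Fos, Fosb and Jun were called with it and SAMHD1 KO library 2 left out. It had the lowest WT sums of B cell, macrophage, neutrophil and eosinophil, dendritic cell and erythroid markers. For the platelet marker it was the highest, at 27.2, with a WT median of 7.01, against 11.5 to 16.7 in RIG-I KO. The part of these markers in the Fos, Fosb and Jun values was not tested. Of the related lists, Fosl2 (-0.40 ± 0.09 (SE, limma adjusted p = 0.016)) and Srf, the factor that binds CArG boxes (-0.31 ± 0.08 (SE, limma adjusted p = 0.034)), fell in RIG-I KO. They were 1 of 8 AP-1 and ATF factors and 1 of 14 immediate early factors, and 0 of 10 feedback genes, 0 of 13 heat shock genes and 0 of 9 upstream kinases passed, against the 4.21% of all genes called.

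With both sensors present, all 10 genes had a positive fold change in SAMHD1 KO against WT, against 51.2% of all genes. None of the 10 was called, where 0.0151% of all genes were. The median of the 10 was 0.51, against 0.00 for all genes. Fosb had 32.4, 1019.8, 21.2 and 32.6 normalized counts in SAMHD1 KO libraries and 1.51 ± 0.80 (SE, limma adjusted p = 0.96) against WT, and Fos had 1429, 10186, 1024 and 1689.9 and 1.28 ± 0.66 (SE, limma adjusted p = 0.96). In both, 1 library, SAMHD1 KO library 2, lay far above the other 3, which were close to each other. Jun was 0.87 ± 0.48 (SE, limma adjusted p = 0.96) and Zfp36 0.68 ± 0.49 (SE, limma adjusted p = 0.96). Without SAMHD1 KO library 2 and WT library 3, 0 were called, where 0.00755% of all genes were, 9 of 10 were positive and the median was 0.41. Leaving out SAMHD1 KO library 2 alone gave a median of 0.22 and leaving out WT library 3 alone 0.82. With both libraries left out, Fos averaged 1381 ± 335 in SAMHD1 KO (SD, n = 3) and 709 ± 377 in WT libraries (n = 4), a difference of 1.05 ± 0.55 (SE, limma adjusted p = 0.82). Dusp1 changed sign, to -0.15 ± 0.69 (SE, limma adjusted p = 1.00).

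Where a sensor was missing, loss of SAMHD1 again called none of the 10. SAMHD1 MDA5 DKO against MDA5 KO gave a positive value for 10 of 10 with a median of 0.44, against 50.4% of all genes positive and a median of 0.00, where 0.00755% of all genes were called. The median was 0.23 without MDA5 KO library 3 and 0.29 without SAMHD1 MDA5 DKO library 4. Set against RIG-I KO, SAMHD1 RIG-I DKO gave a positive value for 2 of 10 with a median of -0.20, against 50.6% of all genes positive and a median of 0.00, where 0.0679% were called. The median was -0.11 without RIG-I KO library 3 and -0.10 without SAMHD1 RIG-I DKO library 1. Fos was 0.66 ± 0.70 (SE, limma adjusted p = 1.00) in the first and -0.57 ± 0.70 (SE, limma adjusted p = 1.00) in the second. Neither comparison uses SAMHD1 KO library 2 or WT library 3, though both enter the shared estimate of spread. Neither interaction called any gene of the table, so 0% of all genes stand beside 0 members. At an unadjusted p under 0.05, 1 member (Jund) passed in the interaction with RIG-I and 0 in that with MDA5.

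MDA5 loss alone called 0 of 10 against WT, where 0.0679% of all genes were called, with 5 of 10 positive and a median of 0.02. That balance depended on single libraries: 2 of 10 were positive with a median of -0.20 without MDA5 KO library 1, and 7 of 10 with a median of 0.08 without WT library 3, alone or together with SAMHD1 KO library 2. Leaving out WT library 1, 2 or 5 or MDA5 KO library 2 also gave a median below 0. Fosb had its lowest genotype mean in MDA5 KO, with libraries at 11.8 to 16.5, against 11.1 to 114 in WT libraries, with a difference of -0.85 ± 0.80 (SE, limma adjusted p = 0.89). SAMHD1 MDA5 DKO against SAMHD1 KO called 0 of 10, where 0.121% of all genes were called, with 2 of 10 positive and a median of -0.24, against -0.03 for all genes. Without the 2 libraries it again called 0, where 4.03% of all genes were called, with 6 of 10 positive and a median of 0.12; leaving out SAMHD1 KO library 2 alone gave the same median. Without any other single library of the 2 genotypes the median was -0.45 to -0.06. Fosb had 18.7, 12.7, 24.0 and 28.4 normalized counts in SAMHD1 MDA5 DKO libraries and -1.75 ± 0.84 (SE, limma adjusted p = 0.21) against SAMHD1 KO, and -0.47 ± 0.40 (SE, limma adjusted p = 0.55) without the 2 libraries. At an unadjusted p under 0.05, the members that passed were 1 each in SAMHD1 KO against WT, SAMHD1 MDA5 DKO against MDA5 KO (Jund in both) and SAMHD1 MDA5 DKO against SAMHD1 KO (Fosb). There were 0 in MDA5 KO against WT, and 0 between SAMHD1 RIG-I DKO and RIG-I KO. In each comparison limma voom on the recovered reads called as many of the 10 as the main test did.

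Without SAMHD1 KO library 2 and WT library 3, the test among the 6 genotypes called Fosb besides Jund, against 22.1% of all genes (F = 7.94, limma adjusted p = 0.0049). The 2 of 10 members called lie near that share. Fosb was then at 17.0 to 92.1 in RIG-I KO and 32.2 to 52.4 in SAMHD1 RIG-I DKO, at 12.7 to 28.4 in SAMHD1 MDA5 DKO and 11.8 to 16.5 in MDA5 KO, and at 21.2 to 32.6 in SAMHD1 KO and 11.1 to 20.4 in WT libraries. At such levels Fosb rests on few reads per library. A fit with a term marking SAMHD1 KO library 2 and WT library 3 nearly repeats leaving them out. It called the same 2 genes, against 23.2% of all genes.

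The authors' deposited table of 7 comparisons, with its own p-values, lists Jund at -0.41 (adjusted p = 0.0024) in SAMHD1 RIG-I DKO against WT, where it called 16.1% of its genes. For the double knockouts the authors' deposited table runs SAMHD1 KO over DKO, so a positive value is higher in SAMHD1 KO. Against SAMHD1 RIG-I DKO, where it called 15% of genes, the authors' deposited table lists Fosb at 2.70 (adjusted p = 0.027), Jund at 0.70 (adjusted p = 1.5e-07) and Egr1 at 2.37 (adjusted p = 0.0097). Against SAMHD1 MDA5 DKO, where it called 6.62% of genes, the authors' deposited table lists Fosb at 3.72 (adjusted p = 0.011). The SAMHD1 KO values behind both Fosb entries include the 1019.8 of SAMHD1 KO library 2, and those behind the Egr1 entry include its 2683. In the 4 other comparisons the authors' deposited table called 0 of the 10, where it called 0.158% of its genes in MDA5 KO against WT, 8.85% in RIG-I KO against WT, 0.196% in SAMHD1 KO against WT and 1.76% in SAMHD1 MDA5 DKO against WT.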

How the data were processed

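RNA-seq of peritoneal macrophages gave 25 libraries of 6 genotypes. Per the submitters' processing notes, the tools were STAR, Salmon, DESeq2 and R 4.1.2 and the builds GRCm38 and mm10, without roles, while the labels' extract protocol names pBWA, bedtools and an Ensembl annotation. The sources used here do not say which account made the values or whether strand was used. The authors deposited log2 values per library, which the values themselves show to be the variance-stabilizing transformation of DESeq2. They also deposited the signal per genotype (mean normalized counts), and log2 fold changes with p-values of 7 comparisons, per the file headers.

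Inverting that transformation returned normalized counts (largest relative deviation from the deposited means 4.62e-14), and 100% of values were whole reads at a tolerance of 0.01. No 2 libraries of a genotype were duplicates (chi-square per degree of freedom 12.9 to 209.6 over 40 pairs). Columns were assigned to genotypes by name and not to single sample titles.

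Log2 of normalized count + 1 was fitted with limma 3.58.1 (trend, robust; R 4.3.3, statmod 1.5.0), genotype as the only factor, two-sided, Benjamini-Hochberg adjusted. Fold changes of low genes are understated on this scale, and they are differences of mean log2 values. A minimum of 10 normalized counts in 4 libraries kept 13252 genes, and 14 were left out. The procedure was tested on simulated data. A count model was not the main test because the deposited unit is log2. Alternatives were pseudocounts of 0.5 and 8, no filter, the deposited scale, upper-quartile scaling, limma voom on recovered reads, the genotypes of a comparison alone, and leaving out libraries. Libraries of intermediate Samhd1 were the SAMHD1-deficient ones above 40% of the WT mean.

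The members, the lists and the tests were chosen with earlier results of these data known. Named were the 10 members, the 10 genes most like their mean deviation, and of each related list the genes called, otherwise, for the comparison with the most genes called, those with the highest mean count, of which some are not reported here; other genes named for both libraries that stand apart were chosen after their values were seen. Marker lists without a full range above were T cell (1 of 5 measured, 0 to 32.2 normalized counts per library), dendritic cell (3 of 4, 390 to 1648), erythroid (3 of 5, 2.92 to 1750), platelet (1 of 3, 1.84 to 29.8) and mesothelial (0 of 4).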

Additional observations from a re-analysis of the deposited data

Results flagged for a closer look

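Single libraries lay far from the others of their genotype in 6 of 60 combinations of gene and genotype, judged by the gap to the nearest library over the whole range on the log2 scale; chance alone gives about 1 in 20 groups, or 3. Fosb was 1020 normalized counts in SAMHD1 KO library 2, against 21.2 to 32.6 in the other SAMHD1 KO libraries, and 114 in WT library 3, against 11.1 to 20.4 in the other WT libraries. Fosb was also 16.5 in MDA5 KO library 4, against 11.8 to 11.9, a gap of a few reads. Jun was 5790 in WT library 3, against 1010 to 1490. In SAMHD1 RIG-I DKO library 2, Jun was 3060, against 1770 to 1880 in the other SAMHD1 RIG-I DKO libraries, and Junb was 12000, against 7220 to 7620. That library was not among those that stood apart on the first principal component.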

How the results depend on the processing

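The calls of Jund kept their direction and threshold under every alternative run. Without both libraries that stand apart, the members called were 3 in RIG-I KO against WT, against 0 with all libraries. Among the 6 genotypes they were 2, against 1 with all libraries. With a term marking both libraries, an alternative added after seeing the data, they were likewise 3 and 2. That fit nearly repeats leaving both libraries out. The added calls were Fos, Fosb and Jun in the first and Fosb in the second. The median within-genotype SD of the members was 0.479 and the median r of their pairs 0.235 without both libraries; leaving out 1 library in turn gave 0.651 to 0.794 and 0.42 to 0.502. Leaving out 1 library gave 1 to 2 members called in SAMHD1 RIG-I DKO against SAMHD1 KO (2 without MDA5 KO library 1 or SAMHD1 KO library 1, which added Egr1) and 1 to 2 among the 6 genotypes (2 without MDA5 KO library 1, which added Egr1, F = 4.47, limma adjusted p = 0.049). The causes were not tested. No called value changed sign. Of 100 values of members in contrasts and interactions, uncalled signs changed in 17 without both libraries that stand apart and 15 with the term marking both. They changed in 21 without the libraries of intermediate Samhd1 and 20 without SAMHD1 KO library 2. The number was 1 under upper-quartile scaling, 0 to 6 without any other single library and 0 under the other settings. No paired analysis was possible because the columns carry no replicate numbers of the sample titles. Fosb, at few reads in most libraries, is limited by depth.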
